A study of Mus musculus with 18 samples.

Results

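A set of 35 genes of monocytes and macrophages was followed in whole mouse lungs with and without interleukin-4 (IL-4), after breathing low oxygen or room air. Its members are the C1q chains, markers of interstitial macrophages, pan-macrophage genes, Fc receptors with their signalling adaptors, monocyte genes and alveolar macrophage genes. All probes of the non-normalized table whose annotated gene symbol was on this list were taken, which gave 43 of 25697 probes and covered 30 of the 35 genes. Of these, 27 were bright enough to be tested, among 12571 genes tested in lung. Of the 27, 25 were detected on all 12 lung arrays, Folr2 on 11 and Cd300e on 4. Msr1, a scavenger receptor, was detected on 0 of 12 lung arrays. Ccr2, the chemokine receptor of inflammatory monocytes, and Nr4a1, a transcription factor of patrolling monocytes, were each detected on 1, a KO normoxia array in both cases, and were not tested. Cd68, Csf1r, Mpeg1, Ace3 and Ear2 were not analysed here.

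The lungs came from male IL-4 KO or wild-type (WT) mice on the C57BL/6 background, 8 to 12 weeks old. They spent 4 days in a chamber with 10% oxygen (hypoxia) or in one open to room air (normoxia). This gave the groups KO hypoxia, KO normoxia, WT hypoxia and WT normoxia, with 3 arrays each, and each array held total lung RNA of 1 animal. A further 6 arrays held endothelial cells grown from small lung vessels (pulmonary microvascular endothelial cells, PMVEC) of C57BL/6 mice, female and 4 to 6 weeks old, given recombinant IL-4 (rIL-4) at 50 ng/mL or vehicle for 24 h, with 3 samples each; whether these were separate cultures is not stated.

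Lung macrophages fall into alveolar cells, which lie in the airspaces and clear surfactant, and interstitial cells, which lie in the tissue around vessels and airways and are rich in C1q and in scavenger receptors. Blood monocytes enter the lung through chemokine signals and can become macrophages there. IL-4, a cytokine of type 2 immunity, signals through the transcription factor STAT6 and drives the alternative activation of macrophages. The comparisons ask what 4 days of low oxygen do to these transcripts, and whether that depends on IL-4. In whole lung RNA, fewer cells of a type and less RNA per cell cannot be told apart.

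The arrays were Illumina bead arrays, on which the brightness of a probe reads its transcript, and values below are normalized log2 signals unless stated otherwise. On a lung array 60.2% to 64.2% of all probes were detected, and arrays of a group correlated at 0.987 to 0.995 across probes, with 0 pairs identical. Il4 itself read 5.86, 5.37 and 5.58 in KO hypoxia, against 7.64, 7.28 and 7.25 in WT hypoxia. In room air it read 5.72, 4.97 and 5.63 in KO lungs, against 8.26, 8.13 and 7.67 in WT lungs, so KO and WT values did not overlap. Neither the allele nor whether this probe lies in its deleted stretch was given by the sources used. The epithelial genes Sftpa1, Sftpb, Sftpc, Sftpd, Scgb1a1 and Ager were detected on all 12 lung arrays. Some arrays stood apart in other cell types. Over 8 neutrophil genes, the mean deviation from the 12-array mean was 2.31 and 1.15 in WT normoxia 1 and 2, and -0.63 to 0.07 on the other 10 arrays. Over 16 liver transcripts it was 3.60, 1.89 and 1.22 in KO normoxia, against -0.46, -0.55 and -1.41 in WT normoxia. For the 27 tested genes of the set, results that rest on these arrays are given with and without them. For the lists of other genes, only fits without single arrays are given.

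Under low oxygen, 5 members rose in both genotypes: the C1q chains C1qb and C1qc, the interstitial macrophage gene Folr2, and Trem2 and Ctsk. In KO lungs, 6 of the 27 genes passed the test (limma with Benjamini-Hochberg adjustment over all 12571 genes, adjusted p under 0.05), with a background of 8.78% over all genes (4.96% higher and 3.82% lower). These 5 rose and Cd300e fell, a gene that entered the test only through KO normoxia, the group in which it is high. In WT lungs, 11 of the 27 passed, with a background of 11.8% (7.48% higher and 4.32% lower). Trem2, Folr2, Ms4a7, Ctsk, C1qb, Aif1, C1qc, C1qa, Adgre1 and Cd86 rose and Abcg1 fell. The median log2 change over the 27 genes was 0.15 in KO lungs and 0.28 in WT lungs, beside 0.03 and 0.00 over all genes; without WT normoxia 3 the WT median was 0.17, and leaving out 1 array moved the KO median to between 0.07 (KO hypoxia 3) and 0.24 (KO hypoxia 2). Groups did not overlap for 12 of the 27 genes in KO lungs, with 27.2% over all genes, and for 13 in WT lungs, with 28.9% over all genes.

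**Figure D1:**
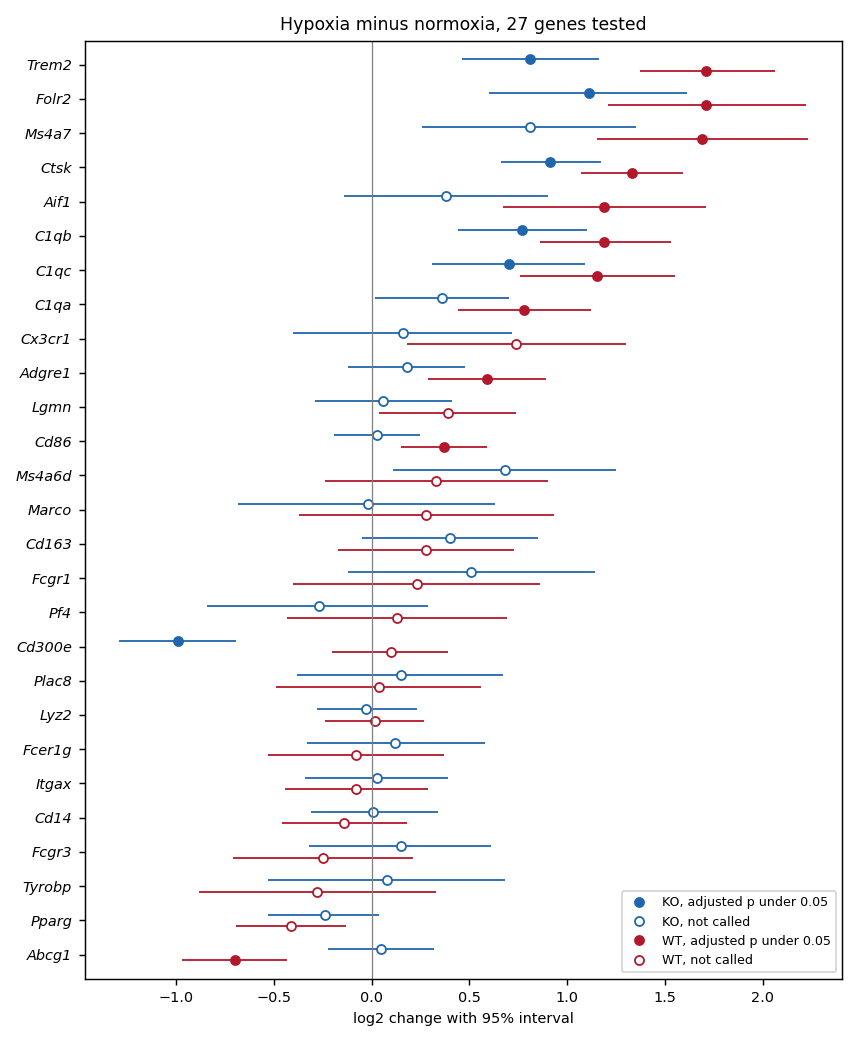
Log2 change under hypoxia (hypoxia minus normoxia, with 95% intervals) of the 27 genes tested, in KO lungs (blue) and WT lungs (red), ordered by the WT change. Filled points passed the test; the highest WT changes, of Trem2 and Folr2, were 1.71, and Abcg1 lay at the other end with -0.70.

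Without KO normoxia 1 and 2, in which liver transcripts stood highest, 4 members passed in KO lungs (Folr2, Ctsk, C1qc and Cd300e), with a background of 2.51% over all genes in that fit. With the liver level as a covariate 3 passed there (Ctsk, C1qc and Cd300e), with a background of 1.44%, and C1qb, Folr2 and Trem2 did not. Without WT normoxia 1 and 2, in which neutrophil transcripts stood highest, 6 passed in WT lungs: Trem2, Folr2, Ctsk, C1qb, C1qc and, newly, Ms4a6d, with a background of 2.78% over all genes in that fit. With the neutrophil level as a covariate 7 passed there, with a background of 3.68%. Trem2, Ctsk, C1qb, C1qc and Folr2 passed in WT lungs under every alternative in which they were tested. The level of 7 pan-leukocyte genes, among them Ptprc (CD45), had a median log2 change of -0.08 in KO lungs and 0.03 in WT lungs, and 0 of 7 passed by limma in either (1 of 7 and 0 of 7 at an unadjusted p under 0.05).

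The stretches of 250 bases before the starts of the 5 genes that rose in both genotypes are shown because these genes moved together. Capitals mark the sequence GAGGAA, or TTCCTC where it lies on the other strand; this is the core that the macrophage factor PU.1 (Spi1) binds, and its GGAA is shared by other factors of the ETS family. The sequences are those of RefSeq on GRCm38.p6, 5′ to 3′ on the strand of the gene.
C1qb (chr4:136886201-136886450, minus strand): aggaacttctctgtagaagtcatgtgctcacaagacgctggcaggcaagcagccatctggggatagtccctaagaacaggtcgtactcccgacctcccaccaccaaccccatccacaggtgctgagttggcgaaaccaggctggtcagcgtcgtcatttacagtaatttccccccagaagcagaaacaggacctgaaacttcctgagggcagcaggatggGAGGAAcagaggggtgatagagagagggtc
C1qc (chr4:136892915-136893164, minus strand): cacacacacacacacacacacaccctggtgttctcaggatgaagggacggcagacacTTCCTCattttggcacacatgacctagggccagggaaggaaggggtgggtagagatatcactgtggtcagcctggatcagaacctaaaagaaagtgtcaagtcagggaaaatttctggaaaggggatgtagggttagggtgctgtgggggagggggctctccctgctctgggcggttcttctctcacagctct
Trem2 (chr17:48346151-48346400, plus strand): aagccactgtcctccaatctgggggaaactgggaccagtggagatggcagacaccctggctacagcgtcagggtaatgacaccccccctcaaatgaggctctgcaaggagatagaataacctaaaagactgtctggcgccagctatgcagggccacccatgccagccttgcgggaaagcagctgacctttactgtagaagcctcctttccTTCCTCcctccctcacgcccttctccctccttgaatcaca
Ctsk (chr3:95498960-95499209, plus strand): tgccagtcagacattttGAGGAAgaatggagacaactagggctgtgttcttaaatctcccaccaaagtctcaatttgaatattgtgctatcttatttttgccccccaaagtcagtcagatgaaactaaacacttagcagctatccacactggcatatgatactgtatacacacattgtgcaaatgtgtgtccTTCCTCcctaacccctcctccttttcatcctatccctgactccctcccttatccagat
Folr2, first start (chr7:101857191-101857440, minus strand): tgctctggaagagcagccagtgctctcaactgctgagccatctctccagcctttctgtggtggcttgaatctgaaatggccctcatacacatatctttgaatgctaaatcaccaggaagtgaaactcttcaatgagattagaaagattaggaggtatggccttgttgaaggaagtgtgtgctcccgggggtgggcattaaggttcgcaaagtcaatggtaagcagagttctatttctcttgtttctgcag
Folr2, second start (chr7:101845332-101845581, minus strand): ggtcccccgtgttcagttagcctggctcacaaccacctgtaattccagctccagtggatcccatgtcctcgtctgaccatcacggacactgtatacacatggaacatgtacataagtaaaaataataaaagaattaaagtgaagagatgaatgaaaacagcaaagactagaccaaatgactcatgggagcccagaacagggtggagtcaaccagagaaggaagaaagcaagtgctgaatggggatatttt
In C1qb the match began 30 bases before the start, in Trem2 40 bases before it and in C1qc 193 bases before it, the last 2 on the other strand. Ctsk held 2 matches, the nearer of them 58 bases before the start and on the other strand, and neither stretch of Folr2 held one. Searched on both strands, GAGGAA occurred in 13 of 33 stretches of the set (39.4%), from 12 of the 26 genes with a stretch in the table, and in 23.3% of all 32851 stretches. TTCNNNNGAA, the form that STAT6 prefers, occurred in 4 of the 33 stretches (12.1%) and in 5.85% of all, and in none of the 6 printed. A match describes the letters and is not a binding site.

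C1qa, C1qb and C1qc encode the 3 chains of C1q, the recognition unit of the classical complement pathway, which tissue macrophages make. Their genes are neighbours on chromosome 4. C1qb read 9.53, 9.50 and 9.85 in KO hypoxia, against 8.87, 8.86 and 8.84 in KO normoxia. In WT lungs C1qb read 10.55, 10.26 and 10.11 under hypoxia, against 9.24, 9.26 and 8.84 in normoxia. All hypoxic lungs lay above all normoxic lungs of either genotype. Its log2 change was 0.77 ± 0.15 (SE) in KO lungs (limma adjusted p = 0.0078) and 1.19 ± 0.15 in WT lungs (limma adjusted p = 0.00034), a 1.71-fold and a 2.29-fold rise. C1qc read 9.67, 9.79 and 9.89 in KO hypoxia, against 9.35, 9.19 and 8.72 in KO normoxia. In WT lungs C1qc read 10.56, 10.47 and 10.21 under hypoxia, against 9.40, 9.44 and 8.95 in normoxia. Here too the hypoxic lungs lay above all normoxic ones. The change of C1qc was 0.70 ± 0.18 in KO lungs (limma adjusted p = 0.031) and 1.15 ± 0.18 in WT lungs (limma adjusted p = 0.0014). Its KO call was lost when KO normoxia 2 or 3, or any KO hypoxia array, was left out. C1qa read 8.14, 8.33 and 8.44 in KO hypoxia, against 7.98, 8.05 and 7.79 in KO normoxia. In WT lungs C1qa read 9.25, 8.80 and 8.64 under hypoxia, against 8.22, 7.99 and 8.14 in normoxia. Groups did not overlap in either genotype, but only the WT change passed, at 0.78 ± 0.16 (limma adjusted p = 0.0066), against 0.36 ± 0.16 in KO lungs (limma adjusted p = 0.21). The WT call of C1qa was lost without WT normoxia 1 and 2.

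**Figure D2:**
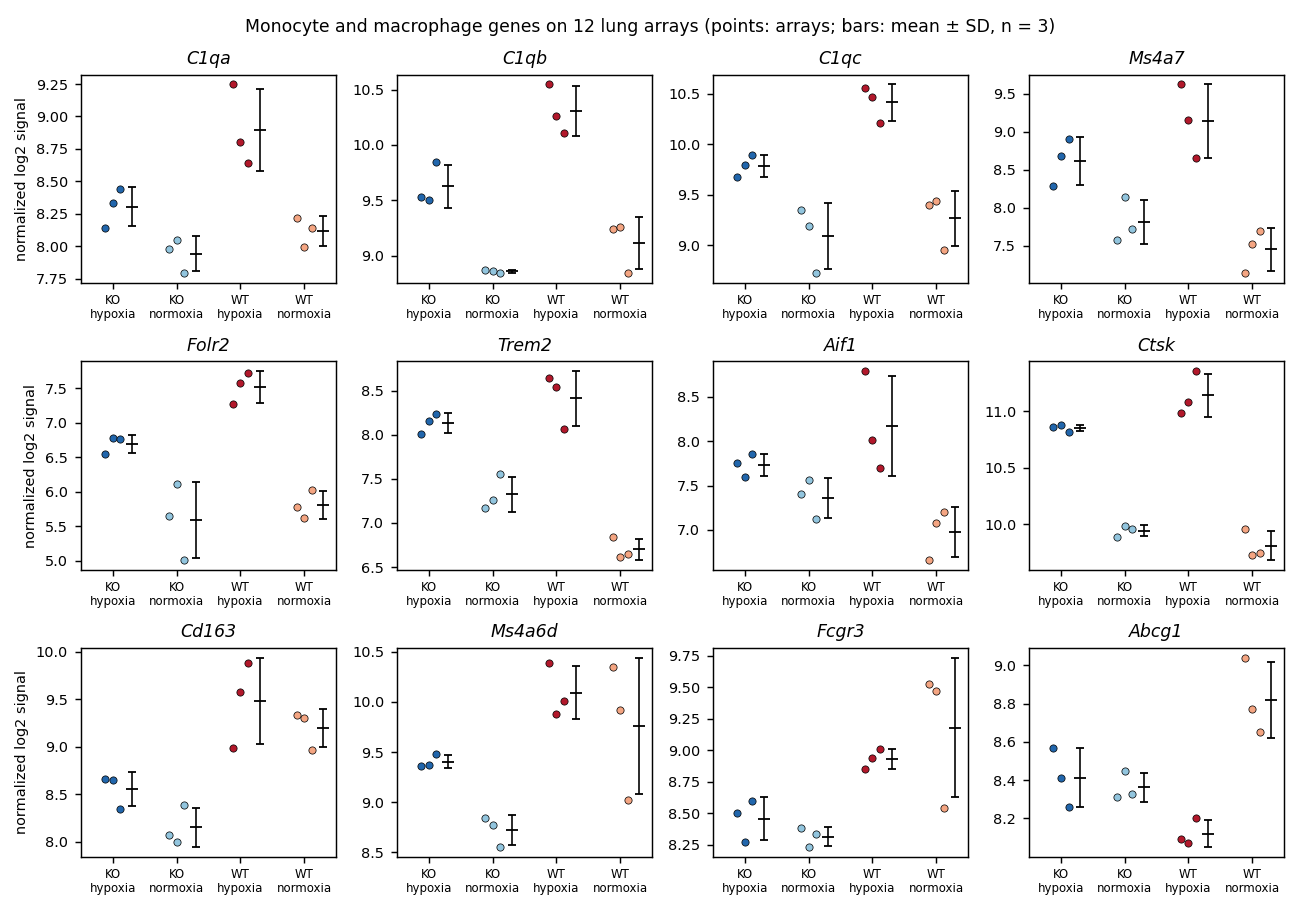
Normalized log2 signal of 12 genes on each of 12 lung arrays; points are arrays, and bars give mean ± SD with n = 3 (vertical scales differ and do not start at 0). C1qb, C1qc, Trem2 and Ctsk stand higher in both hypoxia groups than in either normoxia group, whereas Cd163 is lower in KO than in WT lungs of each condition.

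Among the interstitial macrophage genes, Folr2 and Ms4a7 carried the rise. Folr2, a folate receptor of resident tissue macrophages, read 6.55, 6.78 and 6.77 in KO hypoxia, against 5.65, 6.12 and 5.01 in KO normoxia, where it was detected on 2 of 3 arrays. In WT lungs Folr2 read 7.27, 7.58 and 7.72 under hypoxia, against 5.78, 5.62 and 6.03 in normoxia. The order was WT hypoxia above KO hypoxia above the 2 normoxia groups, with no overlap except between those 2. Folr2 changed by 1.11 ± 0.23 in KO lungs (limma adjusted p = 0.010) and by 1.71 ± 0.23 in WT lungs (limma adjusted p = 5e-04), a 2.15-fold and a 3.28-fold rise. Ms4a7, a membrane protein of the MS4A family found in macrophages, read 8.28, 8.68 and 8.90 in KO hypoxia, against 7.58, 8.14 and 7.72 in KO normoxia. In WT lungs Ms4a7 read 9.62, 9.15 and 8.65 under hypoxia, against 7.14, 7.53 and 7.69 in normoxia. Hypoxic lungs lay above normoxic ones in each genotype. The change passed in WT lungs at 1.69 ± 0.25 (3.22-fold, limma adjusted p = 9e-04) and did not in KO lungs, at 0.81 ± 0.25 (limma adjusted p = 0.067). The WT call was lost without WT normoxia 1 and 2 (1.45, limma adjusted p = 0.063), and the KO change passed without WT hypoxia 1 or 3 (limma adjusted p = 0.044 and 0.041). A second, dimmer probe of Ms4a7 changed by 0.78 ± 0.21 in KO lungs and 1.75 ± 0.21 in WT lungs, and passed in both (limma, Benjamini-Hochberg adjusted p over probes 0.037 and 0.00017).

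The other interstitial genes did not pass under hypoxia. Ms4a6d, another MS4A family member, changed by 0.68 ± 0.26 in KO lungs (limma adjusted p = 0.15), where groups did not overlap and where it passed without WT normoxia 3 (limma adjusted p = 0.020), and by 0.33 ± 0.26 in WT lungs (limma adjusted p = 0.48). It read 10.39, 9.88 and 10.01 in WT hypoxia, against 10.35, 9.92 and 9.02 in WT normoxia, so WT normoxia 3 lay far below its 2 companions. Without those 2 arrays its WT change was 1.07 (limma adjusted p = 0.022). Lgmn, a lysosomal protease, changed by 0.06 ± 0.16 in KO lungs and 0.39 ± 0.16 in WT lungs (limma adjusted p = 0.88 and 0.15). Cd163, the scavenger receptor for haemoglobin-haptoglobin complexes, changed by 0.40 ± 0.21 and 0.28 ± 0.21 in KO and WT lungs (limma adjusted p = 0.30 and 0.44). Pf4, a chemokine of platelets that some tissue macrophages also express, changed by -0.27 ± 0.26 and 0.13 ± 0.26 in KO and WT lungs. Its highest value, 12.41, was on KO normoxia 2, the array with the highest level of 7 platelet genes (mean deviation 1.39, against -0.77 to 0.37 on the others). The part of platelet RNA in the Pf4 values was not tested.

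Of the pan-macrophage genes, Aif1 and Adgre1 rose in WT lungs. Aif1, the actin-binding protein IBA1, read 7.75, 7.60 and 7.85 in KO hypoxia, against 7.40, 7.56 and 7.12 in KO normoxia. In WT lungs Aif1 read 8.79, 8.01 and 7.70 under hypoxia, against 6.66, 7.08 and 7.20 in normoxia. Groups did not overlap in either genotype, with the widest spread in WT hypoxia. The change was 0.38 ± 0.24 in KO lungs (limma adjusted p = 0.43) and 1.19 ± 0.24 in WT lungs (limma adjusted p = 0.0071), and the WT call was lost without WT normoxia 1 and 2. Adgre1, an adhesion-type receptor long used as a macrophage surface marker, read 10.99, 11.29 and 11.06 in KO hypoxia, against 10.98, 10.98 and 10.85 in KO normoxia. In WT lungs Adgre1 read 11.59, 11.27 and 11.61 under hypoxia, against 10.78, 10.80 and 11.12 in normoxia. The separation was narrow in KO lungs, and the change was 0.18 ± 0.14 there (limma adjusted p = 0.51). In WT lungs it was 0.59 ± 0.14 (1.51-fold, limma adjusted p = 0.015), and this call was lost on leaving out WT normoxia 1 or 2 or WT hypoxia 1 or 3. Lyz2, the lysozyme of myeloid cells, changed by -0.03 ± 0.12 in KO lungs and 0.02 ± 0.12 in WT lungs at its brightest probe. Its raw signals of 36100 to 48500 lay near the top of the arrays, where a difference would be compressed, and signals of the related Lyz1 and Lyz2 transcripts cannot be told apart here.

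Trem2 stood out among the Fc receptors and adaptors. Trem2, a lipid-sensing receptor of macrophages that signals through the adaptor Tyrobp (DAP12), read 8.01, 8.15 and 8.23 in KO hypoxia, against 7.17, 7.26 and 7.55 in KO normoxia. In WT lungs Trem2 read 8.64, 8.54 and 8.06 under hypoxia, against 6.84, 6.61 and 6.65 in normoxia. The 2 hypoxia groups overlapped each other and lay above both normoxia groups. Its change was 0.81 ± 0.16 in KO lungs (1.75-fold, limma adjusted p = 0.0078) and 1.71 ± 0.16 in WT lungs (3.28-fold, limma adjusted p = 2.8e-05). The KO call was lost without KO normoxia 1 and 2. Tyrobp changed by 0.08 ± 0.28 in KO lungs and -0.28 ± 0.28 in WT lungs. Fcer1g, the shared signalling chain of Fc receptors, changed by 0.12 ± 0.21 and -0.08 ± 0.21 in KO and WT lungs. For Fcgr1, the high-affinity IgG receptor, the change was 0.51 ± 0.29 in KO lungs and 0.23 ± 0.29 in WT lungs. For Fcgr3, a low-affinity IgG receptor, it was 0.15 ± 0.21 in KO lungs and -0.25 ± 0.21 in WT lungs. None of these 4 passed in either genotype, with adjusted p of 0.35 to 0.92 by limma. Without WT normoxia 3, Fcgr3 passed in WT lungs at -0.57 (limma adjusted p = 0.012). In WT normoxia, Fcgr3 read 9.53, 9.47 and 8.54 and Tyrobp 11.19, 10.36 and 9.87, so replicate 3 was the lowest for each. That array had a mean neutrophil deviation of -0.50, and neutrophils express both genes; the part of neutrophil RNA in these values was not tested.

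Of the 5 tested monocyte genes, Cd300e fell in KO lungs and Cd86 rose in WT lungs, and the other 3 passed in neither genotype. Cd300e, a receptor of monocytes, was detected on all 3 KO normoxia arrays, on 1 KO hypoxia array and on 0 WT arrays, so it entered the test only through the group in which it was high. It read 5.49, 4.96 and 5.15 in KO hypoxia, against 6.09, 6.34 and 6.15 in KO normoxia. The change was -0.99 ± 0.14 (limma adjusted p = 0.00062), and it passed under every alternative in which the gene was tested. In WT lungs Cd300e read 5.05, 5.00 and 5.12 under hypoxia, against 4.85, 5.02 and 5.01 in normoxia, none of them above background. Cd86, a costimulatory ligand, read 8.07, 8.05 and 8.07 in KO hypoxia, against 7.97, 8.13 and 8.01 in KO normoxia. In WT lungs Cd86 read 8.51, 8.27 and 8.37 under hypoxia, against 8.05, 7.99 and 8.01 in normoxia. The WT groups were apart by a small step of 0.37 ± 0.10 (1.29-fold, limma adjusted p = 0.035), which passed in 11 of 25 alternatives, and the KO change was 0.03 ± 0.10. Cx3cr1, the fractalkine receptor, read 8.70, 8.49 and 7.70 in WT hypoxia, against 7.23, 7.51 and 7.93 in WT normoxia. Those groups overlapped, and the change of 0.74 ± 0.26 did not pass (limma adjusted p = 0.086), nor did that of 0.16 ± 0.26 in KO lungs. The WT change passed without WT normoxia 3 (0.93, limma adjusted p = 0.043) or WT hypoxia 3 (1.04, limma adjusted p = 0.016). Cd14, the coreceptor for bacterial lipopolysaccharide, and Plac8, a gene of classical monocytes, changed by at most 0.15 in size in either genotype.

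Alveolar macrophage genes did not move as a group. Ctsk, a collagen-degrading protease that other cells of the lung also make, read 10.86, 10.88 and 10.82 in KO hypoxia, against 9.89, 9.98 and 9.96 in KO normoxia. In WT lungs Ctsk read 10.99, 11.08 and 11.36 under hypoxia, against 9.96, 9.73 and 9.74 in normoxia. Replicates were tight, and every hypoxic lung lay above every normoxic one. Ctsk rose by 0.91 ± 0.12 in KO lungs (1.89-fold, limma adjusted p = 0.00037) and by 1.33 ± 0.12 in WT lungs (2.51-fold, limma adjusted p = 2e-05), under all 25 alternatives in both genotypes. Abcg1, a cholesterol exporter, read 8.57, 8.41 and 8.26 in KO hypoxia, against 8.31, 8.45 and 8.33 in KO normoxia. In WT lungs Abcg1 read 8.09, 8.07 and 8.20 under hypoxia, against 9.04, 8.77 and 8.65 in normoxia. It fell in WT lungs by 0.70 ± 0.13 on the log2 scale (limma adjusted p = 0.0035), a call lost without WT normoxia 1 and 2, and changed by 0.05 ± 0.13 in KO lungs (limma adjusted p = 0.87). Pparg, the nuclear receptor needed for alveolar macrophage development and active in fat cells too, changed by -0.24 ± 0.13 in KO lungs and -0.41 ± 0.13 in WT lungs (limma adjusted p = 0.32 and 0.061). With the mean of its probes it passed as lower in both genotypes (limma adjusted p = 0.026 in KO lungs). In WT lungs it also passed without KO hypoxia 2 or 3 and with only probes detected on all arrays, so in 4 of 25 alternatives. Marco, a scavenger receptor for particles, and Itgax, the integrin CD11c, did not pass: Marco changed by -0.02 ± 0.30 in KO lungs and 0.28 ± 0.30 in WT lungs, and Itgax by 0.03 ± 0.17 and -0.08 ± 0.17. The intervals of Marco, -0.68 to 0.63 in KO lungs and -0.37 to 0.93 in WT lungs, leave room for changes in either direction.

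The responses of KO and WT lungs were then set against each other by an interaction contrast, the KO change minus the WT change. It passed for 0 of the 27 genes, with a background of 0.0159%. At an unadjusted p under 0.05 by limma the count was 7 of 27, beside 1564 of 12571 over all genes. The median difference over the 27 was -0.32, beside 0.03 over all genes, -0.21 without KO normoxia 2 and -0.04 without KO normoxia 1 and 2. For Trem2 the difference was -0.91 ± 0.23 (limma adjusted p = 0.11), with an interval of -1.40 to -0.42. The difference for Ms4a7 was -0.88 ± 0.35 and for Aif1 -0.81 ± 0.34 (limma adjusted p = 0.32 and 0.35). Abcg1 went the other way, with a difference of 0.75 ± 0.18 (limma adjusted p = 0.099). For Cd300e, which had to be high in 1 group to be tested, it was -1.09 ± 0.19 (limma adjusted p = 0.066). Ctsk differed by -0.42 ± 0.17 and Cd86 by -0.34 ± 0.14 (limma adjusted p = 0.32 and 0.35). The 3 C1q chains had differences of -0.42, -0.42 and -0.46 with unadjusted p of 0.074 to 0.099. A smaller response in KO lungs was therefore not called for any of these genes. With limma array weights 3 members passed (Cd300e, Abcg1 and Trem2), with a background of 1.7% over all genes in that fit. Without WT normoxia 3, Cd300e and Abcg1 passed (background 1.58%), and without KO hypoxia 1 Cd300e did (background 0.0557%). The median of the same difference was 1.42 over 8 neutrophil genes and -1.70 over 16 liver transcripts, and their part in it was not tested.

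Under hypoxia, KO lungs read lower than WT lungs for most of the set, but no gene passed. The count was 0 of 27, with a background of 0.0557%. At an unadjusted p under 0.05 by limma it was 11 of 27, beside 945 of 12571 over all genes. The groups did not overlap for 11 of 27, with 13.7% over all genes. The median log2 difference was -0.29, beside 0.01 over all genes, and -0.13 without WT hypoxia 1. The lowest was Cd163, which read 8.66, 8.65 and 8.35 in KO hypoxia, against 8.99, 9.58 and 9.88 in WT hypoxia. That is a difference of -0.93 ± 0.21 (limma adjusted p = 0.16). Folr2 differed by -0.82 ± 0.23 and Ms4a6d by -0.69 ± 0.26 (limma adjusted p = 0.29 and 0.53). All 3 C1q chains were lower in every KO lung than in every WT lung, by 0.59 ± 0.16 for C1qa, 0.68 ± 0.15 for C1qb and 0.63 ± 0.18 for C1qc in size. Their adjusted p by limma were 0.25, 0.16 and 0.29. C1qb passed with array weights (background 0.358%) and Ms4a6d with the neutrophil level as a covariate (background 0.111%). No member passed when any single array was left out. Marco, Abcg1, Cd300e, Fcer1g, Pf4, Pparg, Lyz2, Tyrobp, Plac8 and Cx3cr1 had differences above 0, of 0.01 to 0.38. Over 7 pan-leukocyte genes the median difference was 0.06, and over 16 liver transcripts it was 1.66. In limma, 0 of either list passed, while 0 and 11 had an unadjusted p under 0.05. The part of liver RNA in these differences was not tested.

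**Figure D3:**
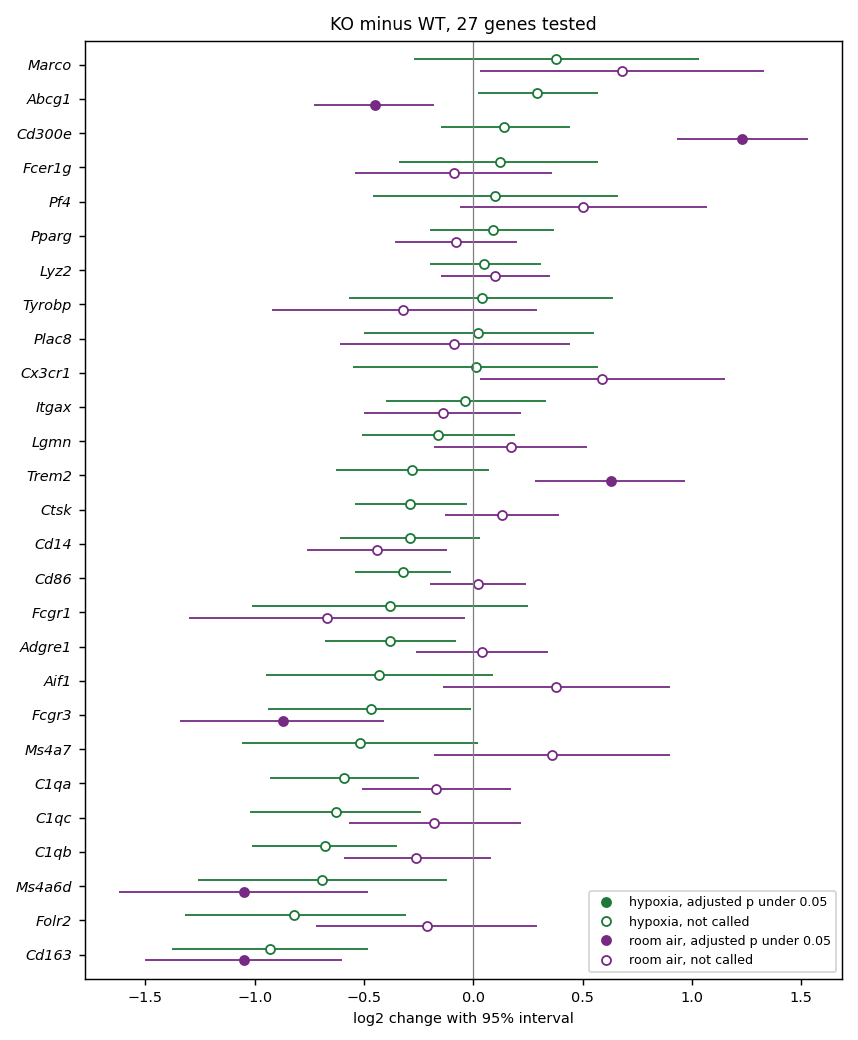
Log2 difference KO minus WT (with 95% intervals) of the 27 genes tested, under hypoxia (green) and in room air (purple), ordered by the difference under hypoxia. Cd163 was lower in KO lungs in both conditions (-0.93 and -1.05), and only room-air differences passed the test (filled points).

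In room air, 6 of the 27 genes passed between KO and WT lungs, with a background of 7.05% (4.09% higher and 2.96% lower): 2 were higher and 4 lower in KO lungs. The groups did not overlap for 8 of 27, with 24.5% over all genes, and the median difference was -0.09, beside -0.02 over all genes; without WT normoxia 1 it was 0.04. Cd163 read 8.07, 8.00 and 8.39 in KO normoxia, against 9.33, 9.30 and 8.97 in WT normoxia, a difference of -1.05 ± 0.21 (limma adjusted p = 0.011). Its second probe gave -1.06 ± 0.22. Ms4a6d read 8.84, 8.77 and 8.55 in KO normoxia, against 10.35, 9.92 and 9.02 in WT normoxia (-1.05 ± 0.26, limma adjusted p = 0.033). Fcgr3 read 8.38, 8.23 and 8.33 in KO normoxia, against 9.53, 9.47 and 8.54 in WT normoxia (-0.87 ± 0.21, limma adjusted p = 0.030). For Ms4a6d and Fcgr3 the WT arrays with the highest values were replicates 1 and 2, where neutrophil transcripts were also highest. Abcg1 read 8.31, 8.45 and 8.33 in KO normoxia, against 9.04, 8.77 and 8.65 in WT normoxia (-0.45 ± 0.13, limma adjusted p = 0.049). Trem2 was higher, at 7.17, 7.26 and 7.55 in KO normoxia, against 6.84, 6.61 and 6.65 in WT normoxia (0.63 ± 0.16, limma adjusted p = 0.036). Cd300e was detected on 3 KO and 0 WT arrays, at least 1.67-fold higher in KO lungs (limma adjusted p = 0.0010). It entered the test only through KO normoxia, the group in which it is high, so its call adds no support to the count.

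Fits that left out arrays or added a covariate made fewer room-air calls, among members and among all genes. Without WT normoxia 1 and 2, Cd300e passed at 1.18 (limma adjusted p = 0.035) and no other member did, with a background of 0.692% over all genes in that fit. There Cd163 still differed by -0.82 and Trem2 by 0.67, while Ms4a6d, Fcgr3 and Abcg1 differed by -0.30, -0.23 and -0.28. Without KO normoxia 1 and 2, Cd300e alone passed again, at 1.19 (limma adjusted p = 0.034), with a background of 0.613%, and the other 5 differed by -1.21 (Ms4a6d) to 0.85 (Trem2), each with its direction kept. With the liver level as a covariate 0 of 27 passed by limma, with a background of 0.0159%. Abcg1 passed in 6 of 25 alternatives, Trem2 in 11, Ms4a6d in 14, Fcgr3 in 15 and Cd163 in 21; Cd300e passed in 23 of 24, but it was tested only because the group in which it is high detected it. Without WT normoxia 1 or 2, or without any one KO normoxia array, 2 members passed, with a background of 3.25% to 7.57% over all genes. Fcgr1 and Cd14 passed as lower in KO lungs without WT normoxia 3 (-0.99 and -0.57, limma adjusted p = 0.035 and 0.032). All 16 tested liver transcripts were higher in KO than in WT lungs of room air, without overlap, and 13 of them passed. The 18 with a probe had summed raw signals of 55200 to 244000 in KO normoxia, against 8570 to 14800 in WT normoxia. All 5 tested B cell genes passed as higher in KO lungs. Of 5 T and NK cell genes 4 were higher there, and 3 passed. For 5 B cell genes the arrays' mean deviation was 0.36 to 0.69 in KO normoxia, against -0.92 to -0.13 in WT normoxia. None of 8 neutrophil genes passed between the genotypes in room air by limma, while 3 had an unadjusted p under 0.05, beside 2810 of 12571 over all genes. Their summed raw signal, over the 9 with a probe, was 13500 to 22000 in KO normoxia, against 11400 to 81300 in WT normoxia. Of 4 Kupffer cell markers, Clec4f and Cd5l were detected on 0 of 12 lung arrays, Timd4 on 12 and Vsig4 on 7. Vsig4 read 6.75, 5.32 and 5.07 in KO normoxia, highest on the array with the highest liver level, against 4.86, 4.87 and 4.78 in WT normoxia. Its mean in WT hypoxia was higher still, at 7.41, where the liver levels were -1.29, -1.86 and -1.13. The part of these cells in the room-air differences was not tested.

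**Figure D4:**
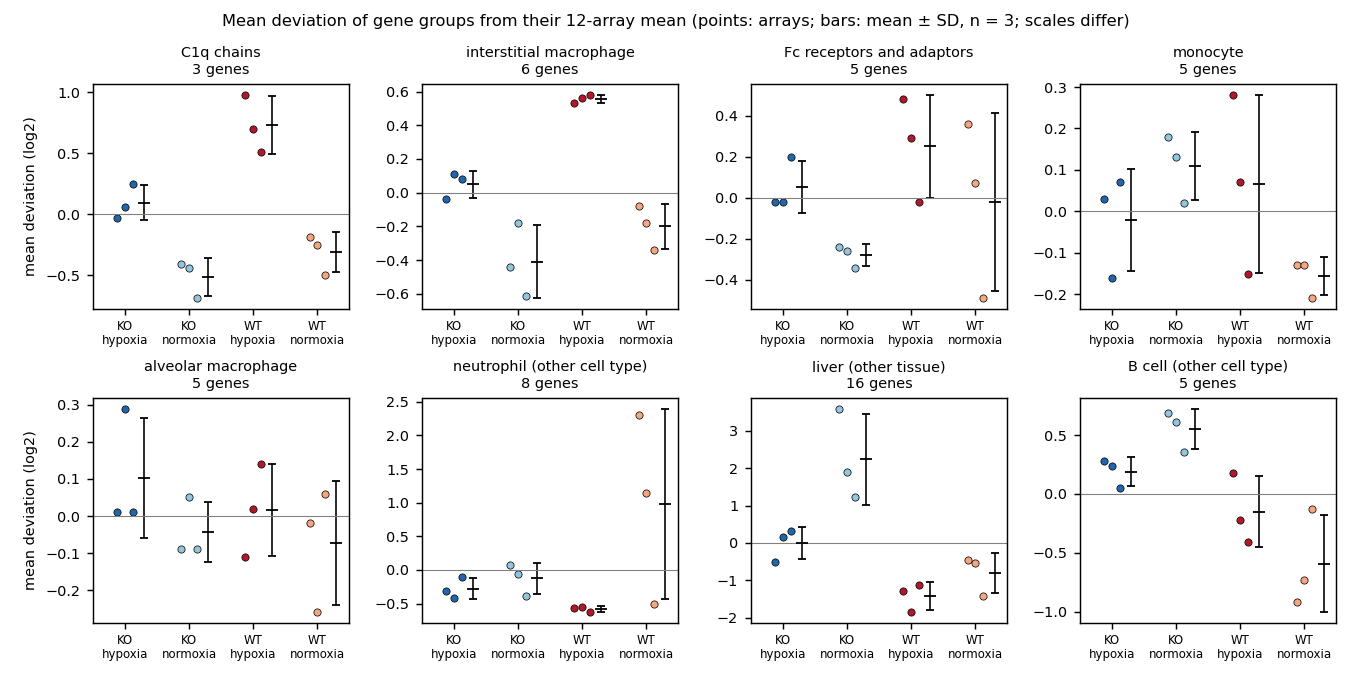
Mean deviation of gene groups from their 12-array mean on each lung array (log2; points are arrays, bars are mean ± SD with n = 3, and scales differ between panels). The C1q and interstitial panels stand highest in WT hypoxia, the neutrophil panel in WT normoxia 1 and 2 (2.31 and 1.15) and the liver panel in KO normoxia.

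As groups, the 6 interstitial genes had mean deviations of -0.04, 0.11 and 0.08 in KO hypoxia, against -0.44, -0.18 and -0.61 in KO normoxia. In WT lungs these were 0.53, 0.56 and 0.58 under hypoxia, against -0.08, -0.18 and -0.34 in normoxia. The 5 alveolar genes ranged from 0.01 to 0.29 in KO hypoxia and -0.09 to 0.05 in KO normoxia, and from -0.11 to 0.14 in WT hypoxia and -0.26 to 0.06 in WT normoxia. The level of these 6 interstitial genes thus separated hypoxic from normoxic lungs of each genotype, while that of the 5 alveolar genes overlapped in both. The 8 other interstitial genes tested separated them too, but in the opposite direction. They ranged from -0.21 to -0.15 in KO hypoxia and -0.06 to 0.04 in KO normoxia. In WT lungs they ranged from -0.13 to 0.01 under hypoxia and 0.18 to 0.31 in normoxia. The 8 other alveolar genes tested were lower in WT hypoxia (-0.36 to 0.07) than in WT normoxia (0.12 to 0.22). The 5 monocyte genes ranged from -0.16 to 0.07 in KO hypoxia and 0.02 to 0.18 in KO normoxia, and from -0.15 to 0.28 in WT hypoxia and -0.21 to -0.13 in WT normoxia.

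Members with several probes mostly gave like values. In WT lungs under hypoxia, the 3 probes of Aif1 changed by 1.74, 1.19 and 1.10, the bright pair of Adgre1 by 0.59 and 0.53 and that of Cd86 by 0.37 and 0.40. A dim further probe did not follow in Adgre1, at 0.02, or in Cd86, at -0.35, and it was detected on 10 of 12 and 4 of 12 lung arrays. The 3 probes of Lyz2 changed by 0.02, -0.44 and -0.17 in WT lungs and by -0.03, -0.28 and -0.01 in KO lungs. None of them passed. The second probe of Pparg changed by -0.74 ± 0.23 in KO lungs and -0.62 ± 0.23 in WT lungs (limma, Benjamini-Hochberg adjusted p over probes 0.077 and 0.11).

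Signals that call or feed these cells were measured too. Of 10 tested growth factors, attractants and their receptors, 2 passed in KO lungs under hypoxia (1 higher, 1 lower) and 5 in WT lungs (3 higher, 2 lower), beside 8.78% and 11.8% over all genes. Ccl8, a chemokine for monocytes and other leukocytes, read 9.24, 9.33 and 10.09 in KO hypoxia, against 7.33, 7.58 and 7.13 in KO normoxia. In WT lungs Ccl8 read 10.55, 10.71 and 10.04 under hypoxia, against 7.42, 7.50 and 7.16 in normoxia. It rose 4.61-fold in KO lungs and 8.43-fold in WT lungs (limma adjusted p = 8.5e-05 and 8.7e-06). Ccl7, a ligand of Ccr2, rose in WT lungs by 1.88 ± 0.37 (limma adjusted p = 0.0066), and Ccl2, the main ligand of Ccr2, by 1.27 ± 0.26 (limma adjusted p = 0.0081). Ccl2 was detected on 0 of 3 KO hypoxia arrays, 3 of 3 WT hypoxia arrays and 1 other lung array, so it entered the test only through the group in which it is high. Cx3cl1, the ligand of Cx3cr1, fell by 0.97 ± 0.15 in KO lungs and by 0.57 ± 0.15 in WT lungs (limma adjusted p = 0.0012 and 0.025). Csf2, the growth factor of alveolar macrophages, fell by 0.68 ± 0.20 in WT lungs, although its groups overlapped (limma adjusted p = 0.043). In room air, Il34, a ligand of the Csf1 receptor, was lower in KO than in WT lungs by 0.94 ± 0.19 in size (limma adjusted p = 0.012). It was the 1 of 10 that passed there, beside 7.05% over all genes. None of the 10 passed in the difference of responses or between the genotypes under hypoxia. There 4 and 5 had an unadjusted p under 0.05 by limma, beside 1564 and 945 of 12571 over all genes.

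Other interstitial markers did not follow Folr2 and Ms4a7. Of 8 tested, 3 passed in KO lungs under hypoxia (1 higher, 2 lower) and 2 in WT lungs (both lower), beside 8.78% and 11.8% over all genes. Lyve1, a hyaluronan receptor shared with lymphatic endothelium, read 12.61, 12.23 and 12.22 in KO hypoxia, against 13.25, 13.34 and 13.29 in KO normoxia. In WT lungs Lyve1 read 12.45, 12.43 and 12.61 under hypoxia, against 14.65, 14.50 and 14.24 in normoxia. It fell by 0.94 ± 0.14 in KO lungs and by 1.97 ± 0.14 in WT lungs (limma adjusted p = 0.0010 and 4.8e-06), and it was lower in KO than in WT lungs of room air (-1.17 ± 0.14, limma adjusted p = 0.0012). Mertk, a receptor for dying cells, fell by 0.73 ± 0.19 in WT lungs (limma adjusted p = 0.025). Mrc1, the mannose receptor CD206, rose by 0.52 ± 0.11 in KO lungs (limma adjusted p = 0.0096), and Apoe, a lipid carrier also abundant in liver, fell by 1.09 ± 0.30 there (limma adjusted p = 0.044). In room air 3 of 8 passed as lower in KO lungs, beside 7.05% passing over all genes, namely Lyve1, Mertk (-0.72 ± 0.19) and Mrc1 (-0.53 ± 0.11). Vsig4, a complement receptor of Kupffer cells and other resident macrophages, read 6.94, 7.64 and 7.66 in WT hypoxia, against 4.86, 4.87 and 4.78 in WT normoxia, where it was detected on 0 arrays. It was at least 3.90-fold higher under hypoxia in WT lungs (limma adjusted p = 0.00066). In KO lungs Vsig4 read 6.13, 6.57 and 5.83 under hypoxia, against 6.75, 5.32 and 5.07 in normoxia; these groups overlapped and did not pass (0.46 ± 0.36, limma adjusted p = 0.52).

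Of the remaining 5 lists, 0% to 25% of the tested genes passed for hypoxia in WT lungs, beside 11.8% over all genes. For hypoxia in KO lungs it was 0% to 14.3%, beside 8.78%, and in room air 6.67% to 25%, beside 7.05%. Of 8 other alveolar macrophage genes, 0 passed in KO lungs under hypoxia by limma, as by unadjusted p, and 1 in WT lungs: Lpl, lipoprotein lipase, fell there by 1.15 ± 0.17 (limma adjusted p = 0.00099). Lpl was also lower in KO than in WT lungs of room air, by 0.96 ± 0.17 in size. Of 15 lysosome and antigen presentation genes, Ctsh rose in KO lungs (0.58 ± 0.13) and was lower in KO than in WT lungs of room air (-0.61 ± 0.13), while Ciita, the master regulator of MHC class II (0.99 ± 0.19), and Ctsz (0.41 ± 0.11) rose in WT lungs. Of 7 other monocyte genes, Treml4 fell in KO lungs (-0.86 ± 0.15), none passed in WT lungs by limma (1 at an unadjusted p under 0.05), and Ly6c1, shared with endothelium, was lower in KO than in WT lungs of room air (-0.99 ± 0.22). Of 11 phagocyte transcription factors, Nr1h3, the liver X receptor alpha that drives Abcg1, fell in WT lungs (-0.52 ± 0.14) and was lower in KO than in WT lungs of room air (-0.52 ± 0.14). Of 4 tested complement receptors, Fc receptors and integrins, C3ar1, the C3a receptor, was at least 1.23-fold higher under hypoxia in WT lungs (limma adjusted p = 0.035), where it was detected on 3 hypoxia and 0 normoxia arrays. As it was detected on only 1 other lung array, it entered the test only through that group. Fcgr2b, the inhibitory IgG receptor, was lower in KO than in WT lungs of room air (-0.80 ± 0.20).

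Some of these lists rested on single arrays. In WT lungs under hypoxia, no transcription factor and no complement or Fc receptor gene passed by limma when WT normoxia 1 or 2, or WT hypoxia 1 or 3, was left out. The growth factor list had 3 calls there without WT hypoxia 2, and the other interstitial list had 1 without WT normoxia 1 or 2 or WT hypoxia 1. The Ctsh call in KO lungs was lost without KO hypoxia 2 or 3. In room air, the Il34 call was lost without WT normoxia 2, that of Ctsh without WT normoxia 1 and that of Ly6c1 without WT normoxia 1, WT normoxia 2 or KO normoxia 1. Fcgr2b no longer passed when WT normoxia 1 or 2, or KO normoxia 2 or 3, was left out, nor did Nr1h3 without WT normoxia 1 or 2, WT hypoxia 1, KO normoxia 1 or KO hypoxia 2. The other interstitial list had 1 call in room air without KO normoxia 2. Without WT normoxia 3, the other monocyte list had 3 calls for hypoxia in WT lungs and 4 in room air.

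Among other cell types, all 4 tested cell cycle genes rose under hypoxia in both genotypes, by 2.03 to 2.55 in KO lungs and 1.81 to 2.84 in WT lungs. Of 8 tested neutrophil genes, 0 passed in KO lungs under hypoxia by limma, adjusted or not. In WT lungs all 8 were lower under hypoxia, and 5 passed, beside 11.8% over all genes (4.32% lower). Their mean deviation was -0.57, -0.55 and -0.63 in WT hypoxia, against 2.31, 1.15 and -0.50 in WT normoxia. The fall thus rested on WT normoxia 1 and 2, and WT normoxia 3 lay near the hypoxic lungs. The summed raw signal of the 9 with a probe was 10500 to 16500 in KO hypoxia, 13500 to 22000 in KO normoxia, 10200 to 10800 in WT hypoxia and 11400 to 81300 in WT normoxia. All 16 tested liver transcripts fell in KO lungs under hypoxia; the summed raw signal of the 18 with a probe was 16000 to 28200 in KO hypoxia, against 55200 to 244000 in KO normoxia. The part of these shifts in the macrophage results was not tested, beyond the counts given without those arrays and with the covariates.

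In PMVEC most of the set was not detected. Of the 30 genes with a probe, 22 were detected on 0 of 6 PMVEC arrays, among them the 3 C1q chains, Folr2, Ms4a7, Trem2 and Cd163. On all 6 arrays 7 were detected: Lgmn, Lyz2, Aif1 by 1 of its 3 probes, Cd14, Plac8, Pparg and Ctsk. Raw signals overlapped those of lung for Lgmn (1300 to 1730, against 1510 to 2510 in lung) and Ctsk (754 to 873, against 825 to 2860). Plac8 gave 1950 to 2900, against 3110 to 5550 in lung, and Cd14 164 to 235, against 633 to 1020. Pparg gave 87.8 to 109, against 286 to 417, and Aif1 59.3 to 70.6, against 165 to 538. Lyz2 gave 97.5 to 106 in PMVEC, against 36100 to 48500 in lung. Raw signals of Ctsk were 873, 865 and 787 with rIL-4, against 772, 785 and 754 with vehicle. Those of Cd14 were 235, 224 and 220 with rIL-4, against 190, 183 and 164 with vehicle. Every rIL-4 sample lay above every vehicle sample for both, the rule by which Cd14 and Ctsk were picked, and this was not tested. The defining endothelial genes were sparse in these cells: Kdr was detected on 5 of 6 arrays, Pecam1 on 1, and Cdh5 and Tek on 0, while all 4 were detected on all 12 lung arrays.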

How the data were processed

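Total lung RNA of 12 mice was hybridised to Illumina mouse bead arrays, 1 animal per array per the labels. The authors deposited a non-normalized table holding, per probe and array, an intensity and the p-value of its detection. They also deposited log2 values, which served as an alternative. The submitters' processing notes name BeadStudio (no version); the genome build was not given in the sources used here. Of the probes, 23978 of 25697 had 1 gene symbol in the platform annotation and 1719 had none.

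In R 4.3.3, limma 3.58.1 (neqc) corrected the 12 lung arrays for background by means of these p-values and normalized them by quantiles on the log2 scale with offset 16, which compresses changes of dim probes. Kept were 17112 probes detected (p under 0.05) on 3 or more arrays, and each gene was its kept probe of highest mean (12571 genes). Linear models over the 4 groups (lmFit and eBayes, 8 residual and 4.27 prior degrees of freedom) gave 5 two-sided comparisons, adjusted by Benjamini and Hochberg at 0.05; the procedure was tested on simulated data. Where 0 arrays of the dimmer group detected a gene, the fold is a lower bound, set against the lowest detected signals there. The number of arrays limits the precision, and chips were not given in the sources used here. PMVEC arrays were described by raw signal and detection, without a test.

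The members and the lists were chosen with earlier results of these data known. Named are all members and, from each list, up to 4 passing genes with the largest change. The series' log2 table was used for lung only. Alternatives changed the normalization, the filter, the probe rule, the arrays in the fit and covariates, or left out arrays.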

Additional observations from a re-analysis of the deposited data

Results flagged for a closer look

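Cd14 and Ctsk were set apart for their signal in the PMVEC arrays, which no comparison of the lung groups uses. Each was detected on every rIL-4 array, and every rIL-4 signal lay above every vehicle signal. Only rises were searched for among the members, and the share of all probes that would meet this rule was not computed. The mean raw signal of Cd14 was 226 with rIL-4 (220 to 235), against 179 with vehicle (164 to 190). For Ctsk it was 842 with rIL-4 (787 to 873), against 770 with vehicle (754 to 785), so the ranges nearly touched. These are signals as deposited, not normalized between arrays and not tested.

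Abcg1 was set apart because the genotypes differed in opposite directions, without overlap, in the 2 conditions. KO minus WT was 0.29 under hypoxia and -0.45 in room air. The difference between these, tested as the interaction, was 0.75 ± 0.18 and did not pass (limma adjusted p = 0.099).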

How the results depend on the processing

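Of the 25 alternatives, 12 left out 1 array each and 13 changed another setting; no called change reversed its direction. On leaving out 1 array, members called numbered 9 to 12 for hypoxia in WT lungs, beside 7.05% to 14.4% over all genes. For hypoxia in KO lungs they numbered 5 to 7, beside 5.13% to 9.43%. The difference of responses had 0 to 2, beside 0% to 1.58%. KO against WT had 0 under hypoxia, beside 0.0239% to 0.302%, and 2 to 7 in room air, beside 3.25% to 9.82%. The room-air count fell to 2 without WT normoxia 1, WT normoxia 2 or any one KO normoxia array. With array weights, the difference of responses had 3 called members and KO against WT under hypoxia had 1, beside 1.7% and 0.358% over all genes. With the neutrophil level as a covariate, 7 members were called for hypoxia in WT lungs, beside 3.68% over all genes. KO against WT had 1 under hypoxia and 1 in room air, beside 0.111% and 2.92%. With the liver level, 3 were called for hypoxia in KO lungs and 0 for room air, beside 1.44% and 0.0159%. With only the groups compared in the fit, room air had 2, beside 3.3%. Without WT normoxia 1 and 2, an alternative chosen after seeing the data like the pan-leukocyte covariate, hypoxia in WT lungs had 6 and room air 1. Without KO normoxia 1 and 2, room air had 1. The cause of these changes was not tested. All genes called ranged from 350 to 2013 for hypoxia in WT lungs (1483 as reported), 181 to 1710 in KO lungs (1104), 0 to 214 for the difference (2), 2 to 45 for the genotypes under hypoxia (7) and 2 to 1776 in room air (886). No paired analysis was possible because the groups compared share no replicate numbers in the labels. Dim probes such as those of Cd300e, Folr2 and Fcgr1 lie near background, which limits their fold changes.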
